A study of Homo sapiens with 19 samples.

Results

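AKAP8 peaks inside exons are the eCLIP peaks whose center lay, on the same strand, within a skipped exon or one of its 2 flanking exons in any of the 3 deposited tables of skipped exon (SE) events. By this rule 747 of 55027 peaks were members, with 412 of 24637 peaks (1.67%, 95% exact Clopper-Pearson interval 1.52 to 1.84) in epithelial (EPI) cells and 335 of 30390 (1.10%, 0.988 to 1.23) in mesenchymal (MES) cells. No cutoff on enrichment was applied. These intervals cover counting error only and treat overlapping peaks as separate counts. AKAP8 eCLIP reads are cross-linked fragments of RNA that came down with the protein, and a peak is a stretch where the immunoprecipitate (IP) exceeded a size-matched input.

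The cells were HMLE/Twist-ER, an immortalized human mammary epithelial line that carries the transcription factor Twist fused to an estrogen receptor domain. Untreated cells were the EPI state, and 20 nM tamoxifen, which activates the fusion protein, gave the MES state of an epithelial-mesenchymal transition (EMT). Each state had 2 AKAP8 IP and 2 input libraries, merged by the authors into 1 peak list. RNA-seq came from cells with a control shRNA (3 libraries in each state, of which 2 MES libraries enter the MES knockdown table) or with an shRNA against AKAP8 (3 EPI and 2 MES libraries), and every cell carried Twist-ER. The peak lists hold 1 value per peak and no replicate values, so everything said of peaks is a description without a test. The paper calls the libraries of a group biological replicates, but nothing in the labels says that they came from separate cultures. The p-values therefore measure only the spread between these libraries.

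AKAP8 is a nuclear zinc finger protein, first known as an anchor for protein kinase A, that also binds RNA and affects splicing. Exonic sites of a splicing regulator are of interest because proteins bound inside an exon can promote or block its recognition by the spliceosome. A cassette exon is one that a transcript may include or skip, and its percent spliced in (PSI) is the share of transcripts that include it.

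The lists hold overlapping peaks. Of all peaks, 62.8% in EPI and 59.4% in MES overlapped another peak of the same list, and among the exon peaks the shares were 51.9% and 47.5%. Joined where they overlapped, the exon peaks formed 283 regions in EPI and 240 in MES, or 1.87% and 1.23% of all joined regions. Peaks are therefore not independent sites, and up to 12 of them lay in 1 exonic region. Across the junction reads, all 9 epithelial markers, such as CDH1 (log2FC -4.31 ± 0.28 SE, limma adjusted p = 1.7e-06), were lower in MES controls, and all 9 mesenchymal markers, such as CDH2 (5.14 ± 0.27, adjusted p = 3.5e-07), were higher. The 6 markers of blood, endothelium and milk secretion were not among the genes measured. In bulk samples less RNA per cell and fewer cells with the RNA cannot be told apart. AKAP8 itself stood at 44.5%, 33.9% and 42.5% of the control mean in the EPI knockdown libraries (log2FC -1.31 ± 0.21, limma adjusted p = 0.13) and at 41.8% and 40.9% in the MES knockdown libraries (-1.25 ± 0.22, adjusted p = 0.014), below every control library in both states.

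The sequences under several peaks that touched no annotated untranslated region (UTR) show what AKAP8 was found on. Each is the whole peak on the transcript strand of GRCh37, read 5′ to 3′, with 4 motifs in capitals, namely AGGGA, its variant AGGGT, the form TGGGA which starts with thymine, and likewise TGGGT. MICALL2 holds the cassette exon that, among those tested with an EPI peak, had the largest difference in PSI after EPI knockdown. TEN1-CDK3 and SCART1 were among the most enriched peaks, DAZAP1 carried many peaks in each state, TCEA2 had overlapping motifs, and PXN and BSG lie in coding sequence of cassette exons. The shortest exon around the TCEA2 peak center starts at 62696903, within the peak. Of its overlapping motifs, the first therefore lies upstream of that exon and the second crosses its edge.
MICALL2, EPI, chr7:1474366-1474388, minus strand: ttctggcagggggacttgtgtgg
TEN1-CDK3, EPI, chr17:73997300-73997343, plus strand: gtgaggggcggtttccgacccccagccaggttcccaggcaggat
DAZAP1, EPI, chr19:1416117-1416187, plus strand: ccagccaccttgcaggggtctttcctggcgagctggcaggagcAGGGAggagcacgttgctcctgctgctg
TCEA2, EPI, chr20:62696897-62696954, plus strand: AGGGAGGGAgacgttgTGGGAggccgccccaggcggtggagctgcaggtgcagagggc
PXN, EPI, chr12:120654576-120654621, minus strand: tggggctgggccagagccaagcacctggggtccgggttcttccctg
SCART1, MES, chr10:135278246-135278335, plus strand: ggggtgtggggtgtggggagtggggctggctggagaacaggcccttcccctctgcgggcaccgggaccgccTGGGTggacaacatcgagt
BSG, MES, chr19:577794-577871, plus strand: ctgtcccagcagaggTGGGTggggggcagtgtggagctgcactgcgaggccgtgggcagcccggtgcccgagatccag

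Runs of guanine are common to all 7. MICALL2, TEN1-CDK3 and PXN hold none of the 4 motifs within the peak itself, but each has a run of at least 3 guanines. In a window reaching 50 nt to each side of the peak center, every exon peak of both states contained GGG, as did 99.9% of the other EPI peaks and 99.6% of the other MES peaks. Windows of the same length centered on the 107960 SE exons without a peak contained it in 65.5%. At least 1 of the 4 motifs stood in the window of 304 of 412 EPI exon peaks (73.8%) and 246 of 335 MES exon peaks (73.4%). In exons without a peak the share was 34.4%, and among the other peaks it was higher, at 81.6% in EPI and 78.4% in MES. The reverse complements stood in 32.3% of the EPI and 37.6% of the MES exon peaks, near the 36.3% of exons without a peak, so the excess over such exons was seen for the transcript strand and not for its reverse complement. A match describes letters in a window, not a contact.

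Guanine made up 44.1% of the bases around EPI exon peaks and 41.3% around MES exon peaks, against 25.9% around the centers of exons without a peak. Averaged over 11 nt, it rose to 52.7% at 13 nt upstream of the EPI peak center and 49.5% at 12 nt upstream of the MES center. Peaks elsewhere had nearly the same profile, with maxima of 52.0% and 48.7%, both 11 nt upstream. The motif share varied with the kind of exon. It was 87.6% for EPI peaks in 3′ UTRs and 86.8% for those in retained introns, but 62.9% for those in 5′ UTRs and 64.3% for those in coding sequence (CDS), and the MES shares were 81.7%, 80.4%, 62.2% and 69.0% in the same order.

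**Figure D1:**
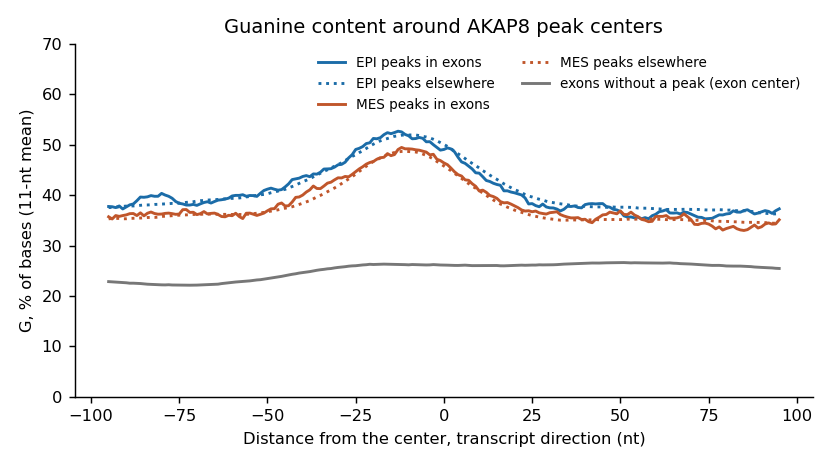
Guanine content (percent of bases, mean over 11 nt) against the distance in nt from the peak center, or from the exon center for exons without a peak, in transcript direction. Exon peaks (solid) and other peaks (dotted) of each state run together and rise just upstream of the center, to 52.7% (EPI) and 49.5% (MES) for exon peaks, while exons without a peak (grey) stay near 25.9%.

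Exons held fewer peaks per base than the rest of their genes, and long exons held most of them. Exon sequence of the SE tables had 16.5 EPI peaks per Mb (exact Poisson 95% interval 15.0 to 18.2), whereas the rest of the same gene spans had 29.3. In MES the density was 13.4 per Mb (12 to 15.0) against 35.4. The shortest exon holding a peak had a median length of 1047.5 nt in EPI and 1075 nt in MES, while the median over all 108331 exons was 127 nt. Exons of at least 1000 nt, 3.89% of all exons, held 51% of the EPI and 51.3% of the MES exon peaks. These long exons make up 38.0% of the exonic bases, so their density, 22.2 per Mb in EPI and 18.2 in MES, exceeded that of all exons only moderately. Exons under 100 nt had 4.18 peaks per Mb in each state, and the highest density, 34.6 in EPI (27.6 to 42.7) and 25.2 in MES (19.3 to 32.3), was in exons of 500 to under 1000 nt. The EPI interval of that class includes the 29.3 of the rest of the gene spans, and the MES interval lies below 35.4. Overlapping peaks count separately here, so the intervals are too narrow, and no class was tested against the rest.

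**Figure D2:**
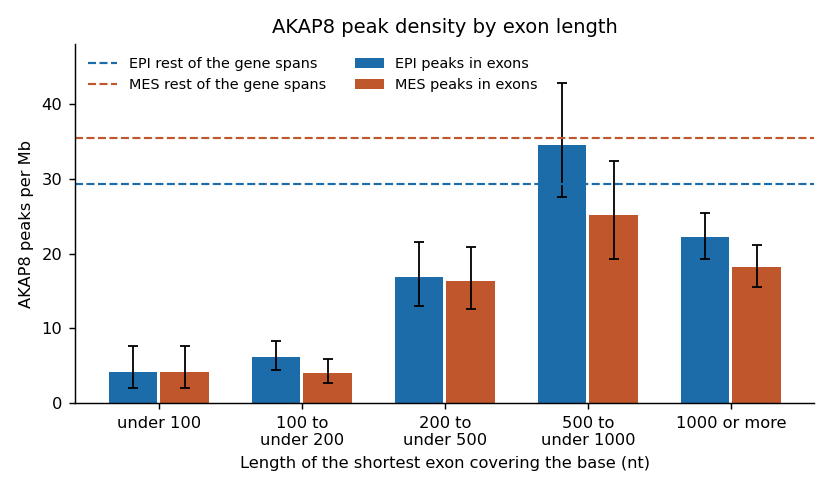
AKAP8 peaks per Mb (bars, with exact Poisson 95% intervals for counting error) in exonic bases grouped by the length in nt of the shortest exon covering them; dashed lines give the rest of the gene spans. Density is lowest in exons under 200 nt and highest at 500 to under 1000 nt, where EPI reached 34.6 and MES 25.2 per Mb, and only the EPI bar of that class stands above the line of its state.

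Cassette exons accounted for a small part. The center of 46 EPI and 48 MES peaks lay in a cassette exon, and 366 and 287 lay only in flanking exons. Exons listed only as flanking exons had 21.1 EPI and 16.6 MES peaks per Mb. Exons listed only as cassette exons had 10.7 and 12.1, and exons listed in both roles had 3.64 and 3.16. Exons of different roles can overlap, so a base or a peak can count under several of them.

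By the newer Gencode v44 annotation, most exon peaks lay in UTRs. Of the EPI exon peaks, 170 (41.3%) were in a 5′ UTR, 113 (27.4%) in a 3′ UTR, 68 (16.5%) in an exon of a retained-intron transcript, 28 (6.80%) in CDS and 22 (5.34%) in a noncoding exon, while 11 matched no exon. MES exon peaks fell in much the same way, with 127 (37.9%) in 5′ UTRs, 31.0% in 3′ UTRs, 46 in retained introns, 29 in CDS, 27 in noncoding exons and 2 without a match. For 275 EPI peaks (66.7%) and 226 MES peaks (67.5%) the same position was also an intron of a protein-coding transcript, and eCLIP reads cannot tell the exonic from the intronic form. Among the EPI 5′ UTR peaks 141 of 170 had such an overlap, among 3′ UTR peaks 27 of 113. An exonic position in these tables is thus often an intronic one in another transcript.

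Enrichment was given as log2FC IP/Input. In EPI the exon peaks had a median of 3.62 (quartiles 3.15 and 4.09) and the other peaks 3.67 (3.18 and 4.20). For MES the medians were 3.15 (2.53 and 3.55) and 3.36 (2.84 and 3.86). The cutoff that the study used for strong sites, a log2 of at least 2 with a −log10 p of at least 3, was met by 362 EPI exon peaks (87.9%), the same share as for other EPI peaks (87.9%). It was met by 268 MES exon peaks (80.0%) and by 86.4% of the other MES peaks. Of the annotation classes, MES retained introns had the lowest median log2, 2.74, and EPI CDS peaks the highest, 3.87.

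**Figure D3:**
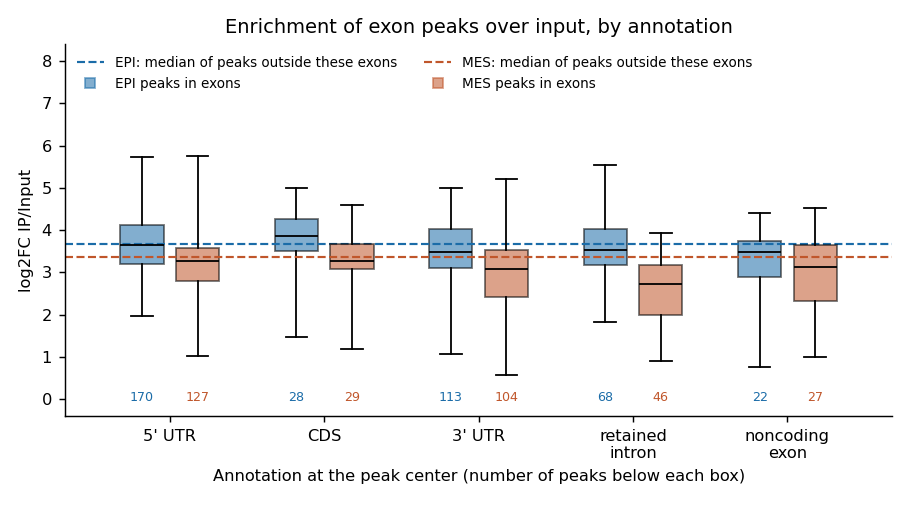
log2FC IP/Input of exon peaks by the annotation at the peak center, for EPI and MES; boxes are quartiles with the median, whiskers run from the lowest to the highest peak, and dashed lines are the medians of peaks outside these exons (3.67 and 3.36). EPI medians lie above MES medians in each class shown, and the MES retained-intron peaks are lowest, with a median of 2.74.

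The most enriched EPI exon peak lay in an 837-nt exon of FADS2, a fatty acid desaturase, with a log2FC IP/Input of 6.30. By Gencode v44 its center matched no exon and lay in an intron of a protein-coding transcript. RABGEF1, an exchange factor for the endosomal GTPase Rab5, followed at 5.74 in a 797-nt 5′ UTR exon that is also a cassette exon, and TEN1-CDK3, a readthrough transcript, reached 5.55. The next EPI peaks were those of SLC16A3 (5.17), ALDH16A1 (5), RBM14 (4.99), ESRRA (4.97), ARFRP1 (4.91), MICALL2 (4.91) and RER1 (4.88). RBM14 is an RNA-binding coactivator, and ESRRA an orphan nuclear receptor of energy metabolism. In MES the highest value was 5.76, in a first exon of TFEB, the transcription factor of lysosomal genes. GSE1 reached 5.59, ZNF664, a zinc finger gene, 5.33, the tetraspanin gene TSPAN9 5.20 and SLC16A3 5.19. Lower in the order came UBE2J2 (4.79), DNAJC5 (4.68), SCART1 (4.59), PDXK (4.53) and HBP1 (4.31). The cassette exon of SCART1 that holds this peak had only 1.33 junction reads per library across the EPI and MES controls. SLC16A3, which encodes the lactate exporter MCT4, was the only gene among the 10 highest of both states.

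Some exons were covered by many peaks. LZTS2, a leucine zipper protein that acts on β-catenin, had 19 EPI peaks in 10 regions of a single 3471-nt exon (10:102759233-102762703, 5′ UTR), with log2 values from 2.57 to 4.58. ARRDC1, an arrestin-domain protein of membrane vesicles, had 15 EPI peaks in 3 regions, and ZNF664 had 12 in 4. DAZAP1, an hnRNP-like splicing factor, had 13 EPI and 12 MES peaks in the same 1571-nt exon (19:1415969-1417539) of a retained-intron transcript. The 2545-nt exon of SLC16A3 (17:80191563-80194107, 5′ UTR) held 10 EPI peaks in 5 regions and 19 MES peaks in 7. DNAJC5, a chaperone of synaptic vesicles, and the tetraspanin gene TSPAN4 each had 11 MES peaks, in 8 and 3 regions. Most genes had far fewer, since 105 of 184 EPI genes and 80 of 142 MES genes had 1 exon peak.

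Exon peaks in the splicing and EMT gene lists were read against the share over all genes. Among all 11701 genes of the SE tables, 1.57% had one in EPI and 1.21% in MES. None of the 23 measured hnRNP genes, 16 SR and SR-related genes, 23 cell junction genes, 33 matrix and integrin genes or 12 EMT splicing regulators did in either state. Of 24 core spliceosome genes 1 did, SNRNP70, the U1 snRNP 70K protein, whose 1474-nt exon held 3 EPI peaks (highest log2 4.35) and 6 MES peaks (3.16). Of 23 translation factors 2 did, EIF5 (2.24 in EPI, 2.86 in MES) and EEF1D (2.51 and 3.46). Among 30 actin cytoskeleton genes it was CORO1C alone, a coronin, with 5 EPI peaks (4.44) and 4 MES peaks (3.44). With so few genes per list, these counts do not set any list apart from the other genes. AKAP8 had 11 EPI and 14 MES peaks within its own gene span, none of them inside an exon. In the merged lists HNRNPM and CD44 had no peak within the span of their SE exons, and CLSTN1 had 1 EPI peak there, outside the exons. The paper, however, describes a significant eCLIP peak upstream of CD44 exon v8 and AKAP8 binding to CLSTN1 in both states. Why the lists differ from this was not tested.

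About as many exon peaks were found in both states as in 1. Of the EPI exon peaks, 203 (49.3%, interval 44.3 to 54.2) overlapped a MES peak by at least 1 nt, and of the other EPI peaks 61.8%. Of the MES exon peaks, 191 (57.0%, 51.5 to 62.4) overlapped an EPI peak, and of the other MES peaks 49.3%. By gene, 92 of 234 host genes had an exon peak in both states, which is 50% of the EPI and 64.8% of the MES genes. Among the 203 EPI exon peaks with a MES partner, the EPI value was the higher one in 166, with a median difference of 0.83 on the log2 scale. The other shared EPI peaks leaned the same way, with a median of 0.62, so a higher EPI value was not limited to exons. The libraries behind each list differ between the states, and their part in this difference was not tested.

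FRMD6, a FERM domain protein of the Hippo pathway, had the largest difference, with 4.63 in EPI and 1.06 in MES, where its −log10 p was 1.67. That pair meets only at its ends, and the EPI peaks that cover most of the same MES peak had 3.63 and 3.65. ESRRA followed with 4.97 and 1.78. RGP1, a partner in Rab6 activation, had 4.03 and 1.32, TEN1-CDK3 5.55 and 2.98, and EMC10, of the membrane protein insertase EMC, 3.96 and 1.42. Fewer pairs had the higher value in MES, and several EPI peaks can share a MES peak, so pairs are not a count of exons. TFEB had 3 EPI peaks, with 3.62, 3.71 and 4.51, the last of them over nearly the whole MES peak of 5.76. HBP1, an HMG-box repressor, had 3.15 and 4.31, and the 114-nt exon of CAPN15, a calpain gene, 2.86 (−log10 p 1.63) and 3.99. In a 576-nt exon of CAPN15, a MES peak of 3.08 overlapped EPI peaks of 2.54, 3.91 and 4.04, so its pairs went both ways. GRAMD4 had 2.67 and 3.67. MTSS1L had 2.72 and 3.85 in one pair and, in the other direction, 3.41 and 3.16 in another.

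**Figure D4:**
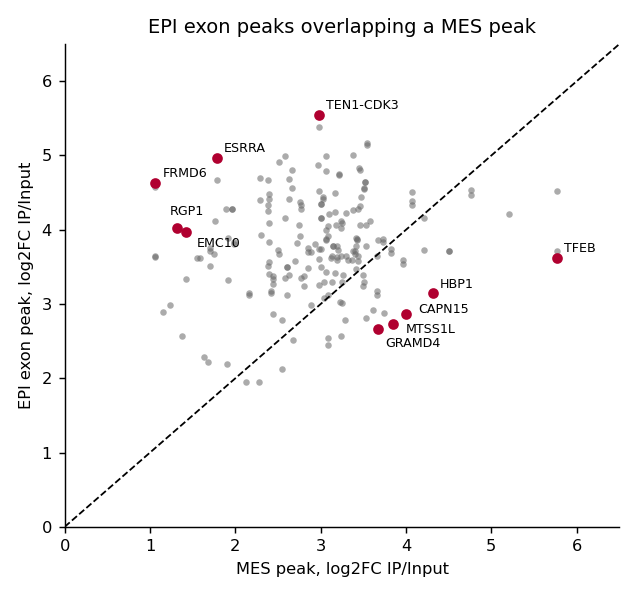
log2FC IP/Input of the 203 EPI exon peaks that overlap a MES peak, against the value of that MES peak; 1 point is 1 EPI peak, the dashed line marks equal values and red points are the 5 largest differences each way, 1 per gene. In 166 of 203 pairs the point lies above the line, with FRMD6 and ESRRA farthest above and TFEB farthest below.

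Whether cassette exons with a peak responded to AKAP8 knockdown was asked of the junction reads. An event was tested where libraries had at least 20 junction reads on average, and it counted as changed with an adjusted p under 0.05 and a ∆PSI of at least 10 percentage points. Of 47579 SE events tested in EPI, 25 (0.0525%) changed. Among the 29 tested events of the 24 exons with an EPI peak, 0 changed, with 1 at an unadjusted p under 0.05. In MES 21 of 43832 events (0.0479%) changed. Of the 24 tested events of 22 exons with a MES peak 0 did, with none at an unadjusted p under 0.05. So small a share over all events leaves none in sets of this size, so these counts do not set the exons apart. Limma on the logit of PSI called 0 of all events in both knockdown comparisons, so its 0 among these exons tells nothing about them. The unadjusted share over all events was 2.97% in EPI and 2.72% in MES. With a peak in a flanking exon, 0 of 191 EPI and 0 of 126 MES events changed, with 11 and 5 at an unadjusted p under 0.05.

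The bound cassette exons differed from other events in depth and inclusion. Their tested EPI events had a median of 76.2 junction reads per library, against 220 over all events, and the MES events 89.5 against 229. In 79.3% of all EPI events the control PSI exceeded 95%, whereas this held for 48.3% of the events with a peak, and a PSI under 5% was found in 24.1% against 4.08%. The median absolute ∆PSI was 1.06 points in the EPI events with a peak and 0.580 over all events, and 2.49 against 0.792 in MES. Fewer reads and intermediate inclusion went with these larger absolute values, and their part in them was not tested. The median signed ∆PSI was near 0 in each set.

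MICALL2, a Rab13 effector in the assembly of cell junctions, had the smallest p. Its 938-nt cassette exon (7:1473846-1474783), whose EPI peak is printed above, had a PSI of 63.0%, 88.2% and 61.2% in EPI controls and of 100%, 100% and 96.2% in EPI knockdown. All 3 knockdown libraries lay above all 3 controls. The ∆PSI was 27.9 ± 8.82 points (SE, n = 3 and 3), and with a quasi-binomial adjusted p of 0.064 it did not pass. The paper lists this exon among the epithelial events that AKAP8 both regulates and binds nearby. Its cutoffs on adjusted p and ∆PSI for that list were looser than those used here. Skipping reads numbered 20, 2 and 13 in the controls and 0, 0 and 1 after knockdown, so the value rests on few reads. In MES, where the exon had no peak, the controls had 71.4% and 58.7% and the knockdown libraries 88.9% and 86.7%, a ∆PSI of 22.7 ± 6.45 points (n = 2 and 2, quasi-binomial adjusted p = 0.81). The difference between the states, -5.25 points, did not pass either (interaction, adjusted p = 0.84).

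The other EPI events with the smallest p did not pass, each with an adjusted p of 0.76. An 84-nt 5′ UTR exon of AKT1, the survival kinase, had 71.4%, 60.3% and 72.6% in controls and 72.4%, 89.1% and 93.5% after knockdown, so 1 knockdown library lay within the control range. Paired with a nearer flanking exon, the same AKT1 exon had 96.0%, 84.7% and 84.8% in controls and 96.7%, 84.9% and 100% after knockdown. The SNRNP70 exon was rarely included, with 0.446%, 0.119% and 0.947% in controls against 2.43%, 0.132% and 1.84%. With single libraries left out, its quasi-binomial adjusted p ranged from 0.00012 to 0.88. Its ∆PSI then ranged from 0.483 to 1.63 points, under the cutoff throughout. For PXN, which encodes the focal adhesion protein paxillin, the PSI was 2.97%, 3.14% and 1.66% against 7.26%, 4% and 4.04%, without overlap of the groups. Groups of 3 against 3 failed to overlap in 5.66% of all EPI events and in 3 of 29 (10.3%) with a peak. Inclusion of the BSG exon was close to 0 in all 6 libraries, with at most 3 inclusion reads.

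Among the MES events the smallest p belonged to NUBP2, a protein of iron-sulfur cluster assembly. Its 1295-nt exon had 99.5% and 95.5% in controls and 100% in both knockdown libraries. WDR6 had 2 nested exons of 2482 and 2696 nt with a common end. The shorter had 99.3% and 99.3% in controls and 97.0% and 97.2% after knockdown, and the longer 98.6% and 98.5% against 94.2% and 94.6%, without overlap of the groups in either. For the 418-nt exon of ALDH16A1 1 control library had 85.2% while the other 3 libraries had 100%. The 114-nt exon of CAPN15 had 30.2% and 81.8% against 61.9% and 23.3%, so the groups overlapped, and the difference changed sign without control replicate 2 or knockdown replicate 2. All 5 had an adjusted p of 0.81. Groups of 2 against 2 failed to overlap in 21.4% of all MES events and in 6 of 24 (25%) with a peak. Of 30 events of bound cassette exons tested for a difference of the knockdown effect between the states, 0 changed, with 0 at an unadjusted p under 0.05 and 0 by limma, where 1 of 31602 events (0.00316%) changed overall and 1521 had an unadjusted p under 0.05.

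Between EPI and MES controls 668 of 49330 SE events (1.35%) changed. Of the 34 tested events whose cassette exon held a peak of either state, 1 did (2.94%), in CAPN15, and 4 (11.8%) had an unadjusted p under 0.05, against 8.77% of all events. The groups did not overlap in 6 of the 34 (17.6%) and in 10.8% of all events. These comparisons use the EPI and MES control libraries that also serve the knockdown comparisons. The CAPN15 exon (16:586029-586142, 5′ UTR) held a peak in both states. Its PSI was 2.63%, 7.32% and 12.8% in EPI and 30.2%, 81.8% and 37.5% in MES, so the groups did not overlap, and the ∆PSI was 42.3 ± 16.4 points (SE, n = 3 and 3, quasi-binomial adjusted p = 0.0022). The event had 23.7 junction reads per library on average, and the call was lost without MES control replicate 2 (26.3 points, adjusted p = 0.21) or without EPI control replicate 1 (39.8 points, adjusted p = 0.14).

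SNRNP70 had the smallest p of the bound cassette exons but a small ∆PSI. The PSI was 0.446%, 0.119% and 0.947% in EPI and 3.27%, 1.83% and 2.34% in MES, a difference of 1.98 ± 0.485 points with 1226.5 reads per library. It passed the p threshold (quasi-binomial adjusted p = 3.9e-08) and fell short of the ∆PSI cutoff, and with limma on the logit of PSI the adjusted p was 0.065. The exons of DBN1, the actin-binding protein drebrin (0.83 points, adjusted p = 0.41, and 0.23 points without MES control replicate 2), GPS1, a subunit of the COP9 signalosome (-3.21 points, adjusted p = 0.49), and PXN (3.31 points, adjusted p = 0.71) did not pass. With a peak in a flanking exon 5 of 250 events (2%) changed. Besides CAPN15 these were RBM4, an RNA-binding splicing regulator (-10.7 points), DNAJC5 (-15.3), SEPT2, a septin (35.7), and TSPAN4 (11.7), named after their values were seen. RBM4 kept an adjusted p under 0.05 when any single library was left out (highest quasi-binomial adjusted p = 0.00089). Its PSI was 93.0%, 93.9% and 95.3% in EPI and 80.4%, 84% and 85.8% in MES. Without MES control replicate 1, the lowest of these, its ∆PSI fell under the cutoff, so the call was lost. With limma on the logit of PSI, RBM4 (adjusted p = 0.22), DNAJC5 (0.46) and TSPAN4 (0.41) did not pass. In the quasi-binomial test DNAJC5 did not pass without MES control replicate 2 (0.12), nor SEPT2 without MES control replicate 1 (0.28), nor TSPAN4 without EPI control replicate 1 (0.17).

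**Figure D5:**
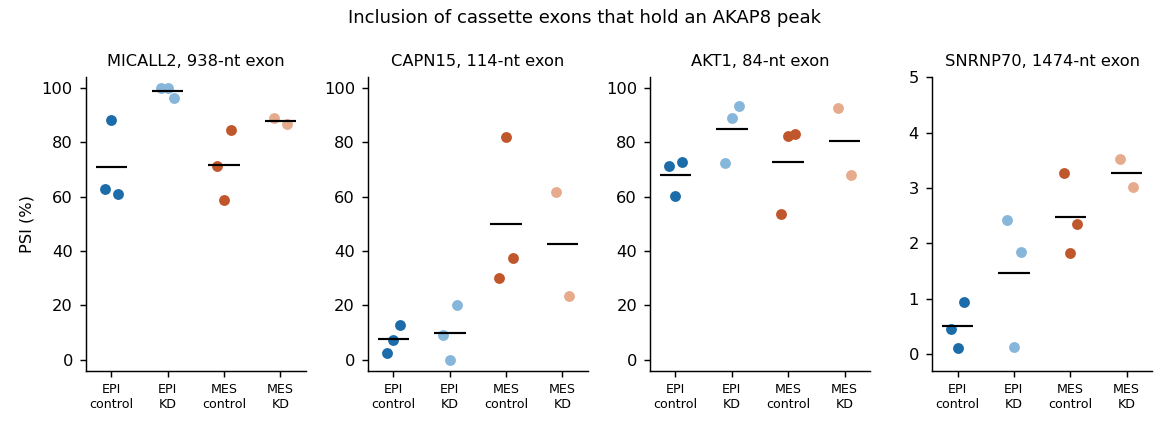
PSI (%) of 4 cassette exons that hold an AKAP8 peak, with 1 point per library and a bar at the group mean, in EPI control, EPI knockdown (KD), MES control and MES knockdown cells; the SNRNP70 axis ends at 5% and the others at about 100%. MICALL2 knockdown points lie above the EPI controls, and the 3 MES control points of CAPN15 (30.2% to 81.8%) lie above those of EPI (2.63% to 12.8%).

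Host genes with an exon peak in 1 state were compared by their RNA level between the states, read from the summed junction reads of each gene. Of 10323 genes tested, 1654 (16%) changed by a log2FC over 1 in size with a limma adjusted p under 0.05, with 9.21% lower and 6.81% higher in MES. Among 89 genes with an exon peak in EPI only, 20 were lower in MES and 4 higher (27%), and the median log2FC was -0.29 against 0.01 over all genes. Among 48 genes with an exon peak in MES only, 1 was lower and 4 were higher (10.4%), with a median of -0.02. The 91 genes with exon peaks in both states had 7 lower and 7 higher (15.4%) and a median of -0.11. After AKAP8 knockdown 2 of 10123 genes (0.0198%) changed in EPI by limma, none of them among the 87, 44 and 90 tested genes with exon peaks in EPI only, MES only and both, of which 12, 6 and 10 had an unadjusted p under 0.05, as did 902 of all 10123. In MES knockdown 372 of 9874 genes (3.77%) changed, among them 6 of 84, 2 of 47 and 4 of 89 of these genes (7.14%, 4.26% and 4.49%).

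Some of the largest differences, named after their values were seen, followed the state of the peak and others did not. PPARG, the adipogenic nuclear receptor, had a MES peak (log2 3.70) and rose from 39.8, 29.2 and 32.8 scaled junction reads in EPI to 1566, 890 and 1571 in MES (log2FC 5.23 ± 0.26, limma adjusted p = 2.8e-07). TMC4, a membrane channel-like protein, had an EPI peak (3.58) and fell from 419, 463 and 402 reads to 8.79, 4.06 and 17.8. OVOL2, a transcription factor that sustains the epithelial state, had a weak EPI peak (log2 3, −log10 p 1.81) and fell from 55, 68.1 and 34.8 to 0, 3.04 and 2.09. In contrast, ZEB1, a repressor of epithelial genes, had an exon peak in EPI only (log2 3.32, −log10 p 5.13), although its level was 7.58, 3.89 and 33.8 reads in EPI and 959, 1009 and 1325 in MES. FBN1, which encodes the matrix protein fibrillin-1, likewise had an EPI peak (4.12) with 78.7, 96.3 and 134 reads in EPI and 14755, 23199 and 11232 in MES. For these 2 genes the peak was found where the junction reads were few.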

How the data were processed

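Per the file headers and methods, the authors aligned eCLIP and RNA-seq reads to GRCh37, merged the 2 IP libraries of a state into 1 peak list and deposited 2 values for each peak, its log2 enrichment (IP against input) and the −log10 of an adjusted p-value; the eCLIP read depth is not in the lists. The SE tables hold junction read counts from rMATS per library, with Gencode v24. Junction reads over SE events summed to between 31258177 and 40852217 per library, a read counting once for each event it supports. The authors' fold changes, p-values and inclusion differences were not used, nor were the other event types.

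Exon peaks were found in Python (3.11.15) by center and strand. PSI was computed from counts and effective lengths, with ∆PSI as the difference of group means. Inclusion against skipping reads was tested with a quasi-binomial likelihood-ratio F test whose dispersion was moderated by squeezeVar of limma (3.58.1, R 4.3.3), with Benjamini-Hochberg adjustment over all events. Gene levels were tested with limma on log2(scaled reads + 1), for genes with at least 10 reads in at least 2 libraries. An exact permutation test cannot go below 0.10 with 3 against 3 or 0.333 with 2 against 2. The event, interaction and gene tests were tested on simulated data. Members, gene lists and rules for named genes (highest log2, changed or smallest-p events, largest state difference, most peaks) were chosen with earlier results of these data known. Libraries are numbered by their order in the tables.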

Additional observations from a re-analysis of the deposited data

How the results depend on the processing

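No paired analysis was possible because the columns of the tables carry no replicate numbers. The lists give no replicate values for peaks, RNA-seq groups hold 2 or 3 libraries, and bound cassette exons had few junction reads, which limits what could be detected. The share of peaks inside exons in EPI and MES was 2.01% and 1.25% by any overlap, 1.95% and 1.25% with exons of either strand, 0.187% and 0.158% for cassette exons alone, and 1.38% and 0.911% with exons of the EPI knockdown table. In EPI it was 1.49% with the whole peak inside an exon and 1.87% by joined regions, an alternative added after seeing the data, and in MES 0.938% at a log2 of at least 3. The median log2 in EPI and MES became 3.73 and 3.46 at a log2 of at least 3, 3.75 and 3.29 at a −log10 p of at least 5, and 3.71 and 3.28 with the cutoff of the study (added after seeing the data), and 3.81 for EPI cassette exons. The share found in both states was 38.8% and 46.6% with an overlap of at least 50% of each peak and 58.7% and 64.6% for cassette exons, and 68.8% for MES at a −log10 p of at least 5. At a log2 of at least 3, flanking exons had 17.6 EPI and 9.83 MES peaks per Mb and cassette exons 8.42 MES peaks. The motif share in EPI and MES was 91.0% and 86.9% with 100 nt to each side, 57.3% and 52.8% with 25 nt, and 100% for GGG in both.

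The number of changed events among bound cassette exons became 1 in EPI knockdown with the dispersion trend on all reads, which was MICALL2 (27.9 points, adjusted p = 0.043, range over alternatives 0.043 to 0.85), and was 0 without each library in turn. Leaving out a library moved its ∆PSI between 23.1 and 36.7 points. In EMT the number was 0 with a minimum of 50 reads or of 100 reads (added after seeing the data), 2 without a ∆PSI cutoff, 5 with a peak in a flanking exon, and 0 to 1 when each library was left out. The count for the difference between knockdown effects was 0 under every alternative run, as were both knockdown counts but for the one named. Leaving out each MES library (added after seeing the data, with the lone library assumed to vary like the others) gave 0 in MES knockdown, and the CAPN15 difference of -13.4 points then ranged from -39.2 to 12.4, with 12.4 without control replicate 2 and 5.88 without knockdown replicate 2. Calls over all events fell to 0 in both knockdown comparisons with limma on the logit, and they were 43 in MES with the trend on all reads, 41 in EPI and 1032 in EMT without a ∆PSI cutoff, and 417 in EMT with limma. Without each library they ranged from 16 to 31 in EPI, 5 to 17 in MES and 438 to 738 in EMT. Scaling by total junction reads moved the median gene by -0.11 and the median of genes with an EPI exon peak only to -0.40. Without each library that median lay between -0.32 and -0.19, and that of genes with a MES exon peak only between -0.07 and 0.04.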
